A study of Mus musculus with 6 samples.

Results

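Basal epithelial genes other than keratins were examined in cells sorted from tumours. They are Trp63, Bnc1, Dst, Oxtr, Procr, Lgals7 and Sfn, 7 genes chosen by symbol from a table of 52325 Ensembl genes. All 7 were found under the same Ensembl identifier as in GENCODE M21, and all 7 passed the filter on low counts that left 20684 genes. RNA came from breast tumours of C57BL/6 mice that carried C3-T, a tumour background the labels do not spell out, and an Elf5-GFP reporter. Elf5 belongs to the ETS transcription factors and acts in luminal progenitors and in the alveoli, and in the reporter its expression is read out as green fluorescent protein (GFP). Digested tumours were sorted with antibodies to CD45, CD31 and TER119, which mark leukocytes, endothelial cells and erythroid cells, and then by GFP. The GFP-positive libraries, labelled Elf5+, number 2, and the GFP-negative libraries, labelled Elf5-, number 4. Both groups share the tumour background, the reporter and the strain, and the labels used here give no age and do not say how the reporter was built. None of the antibodies named marks fibroblasts or pericytes.

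The mammary epithelium has an inner luminal layer and an outer basal layer, which holds contractile myoepithelial cells and rests on the basement membrane. The basal layer is marked by keratins 5 and 14, by the transcription factor p63 and by contractile proteins that squeeze milk from the alveoli when oxytocin binds its receptor. Trp63 encodes p63, a relative of p53 that maintains the basal layer of stratified and glandular epithelia. Bnc1 encodes basonuclin 1, a zinc finger protein of basal keratinocytes and germ cells. Dst encodes dystonin, a plakin whose epithelial form ties keratin filaments to hemidesmosomes, and whose other forms are made in nerve and muscle. Oxtr encodes the oxytocin receptor, and Procr the endothelial protein C receptor, which is found on endothelium and has been used in mice to mark a basal population of mammary cells. Lgals7 encodes galectin 7, a lectin of stratified epithelia, and Sfn encodes 14-3-3 sigma, an epithelial adaptor protein induced by p53.

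The genes lie apart in the genome (GENCODE M21, build GRCm38). Trp63 spans chromosome 16, 25683763 to 25892102, on the plus strand. Bnc1 lies on chromosome 7, 81966672 to 81992292, minus strand, and Lgals7 on the same chromosome at 28863853 to 28866284, plus strand. Dst spans chromosome 1, 33908225 to 34308661, plus strand, with 20 annotated transcripts. Oxtr lies on chromosome 6, 112473683 to 112489943, minus strand, Procr on chromosome 2, 155751117 to 155755471, plus strand, and Sfn, a gene with 1 annotated transcript, on chromosome 4, 133600556 to 133602168, minus strand. Lgals7 lies within the antisense gene Gm10648, which held at most 10 counts in any library against at least 1436 for Lgals7. The values are gene totals, so the epithelial, nerve and muscle forms of Dst cannot be told apart in them.

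Start regions from RefSeq (build GRCm38.p6, 250 bases before to 50 after the start) were found for 6 of the 7 genes, in 7 windows. Those shown belong to Procr (chr2:155750967-155751266, plus strand), the gene that passed the test below, and to Lgals7 (chr7:28864136-28864435, plus strand) and Sfn (chr4:133602119-133602418, minus strand), the most abundant of the set per length. The windows found for 2 starts of Dst (chr1:34011345-34011644 and chr1:34160010-34160309, plus strand) are shown too. GENCODE M21 annotates 17 start sites for Dst, whose transcripts are summed in 1 value. Each is written 5′ to 3′ on the gene's strand. Capitals mark the E-box CACCTG, a sequence bound by Snail and Zeb factors, and the ETS sequence GGAAGT, each searched on both strands.
Procr: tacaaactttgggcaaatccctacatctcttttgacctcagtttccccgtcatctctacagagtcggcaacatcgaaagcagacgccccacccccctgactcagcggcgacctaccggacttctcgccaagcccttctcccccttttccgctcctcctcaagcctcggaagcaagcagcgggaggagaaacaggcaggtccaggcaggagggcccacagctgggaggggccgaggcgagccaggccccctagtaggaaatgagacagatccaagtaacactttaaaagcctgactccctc
Lgals7: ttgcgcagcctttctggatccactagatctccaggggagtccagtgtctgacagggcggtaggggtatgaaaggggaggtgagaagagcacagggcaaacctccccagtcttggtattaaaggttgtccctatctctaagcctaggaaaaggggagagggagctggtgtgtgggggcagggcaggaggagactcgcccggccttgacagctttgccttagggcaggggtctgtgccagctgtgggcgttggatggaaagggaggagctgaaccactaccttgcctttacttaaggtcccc
Sfn: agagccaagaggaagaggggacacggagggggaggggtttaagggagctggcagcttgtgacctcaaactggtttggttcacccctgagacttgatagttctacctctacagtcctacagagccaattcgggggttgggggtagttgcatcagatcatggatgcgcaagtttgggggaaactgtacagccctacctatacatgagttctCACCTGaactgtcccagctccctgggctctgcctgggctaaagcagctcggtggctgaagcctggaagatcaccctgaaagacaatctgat
Dst, upstream start: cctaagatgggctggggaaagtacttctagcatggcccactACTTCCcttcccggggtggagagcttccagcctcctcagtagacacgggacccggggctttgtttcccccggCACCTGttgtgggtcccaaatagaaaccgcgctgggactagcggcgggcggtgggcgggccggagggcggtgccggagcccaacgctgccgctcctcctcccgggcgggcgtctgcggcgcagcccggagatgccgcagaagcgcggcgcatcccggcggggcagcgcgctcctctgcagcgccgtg
Dst, downstream start: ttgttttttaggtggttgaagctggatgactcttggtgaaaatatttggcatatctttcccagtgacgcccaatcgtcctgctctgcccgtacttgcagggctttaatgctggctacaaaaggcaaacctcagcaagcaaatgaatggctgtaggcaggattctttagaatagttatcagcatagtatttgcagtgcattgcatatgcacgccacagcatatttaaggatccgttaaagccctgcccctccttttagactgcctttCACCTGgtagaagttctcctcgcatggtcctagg
The E-box was found in 4 of the 7 windows (once each in Sfn, Oxtr and both Dst windows), against 20.2% of all 32851 windows of this length. GGAAGT was found in 1 of the 7, the upstream Dst window, against 23.8% of all windows. A p53-family half-site, also searched, was found in none of the 7, against 8.36% of all windows. A match is only a match of letters.

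Library totals were 45145621 and 49563376 counts in the Elf5+ libraries and 9106660 to 53694884 in the Elf5- libraries. Elf5- library 4 is the shallowest and the other 5 hold at least 32602477. Values are CPM, a gene's counts set to a common library total after TMM scaling. Elf5 itself was at 77.7 and 137.0 CPM in the Elf5+ libraries against 6.93 to 24.7 CPM in the Elf5- libraries, which checks the labels. Sample titles carry 1 of 2 numbers and a code, T1 or T2, that the labels do not define. Elf5+ library 1 and Elf5- library 2 share a number and T2, as do Elf5+ library 2 and Elf5- library 4, and these are called pair 1 and pair 2 here. The T1 samples, Elf5- libraries 1 and 3, carry the number of pair 1 and of pair 2 and have no Elf5+ partner of their code. Elf5- libraries 1 and 2 hold skeletal muscle transcripts, with summed levels of 8 markers of 228.7 and 39.7 CPM against at most 5.35 CPM in any other library. The labels do not state which libraries share an animal or a tumour. The main fit treated every library as independent, which libraries of 1 animal or tumour would not be. The p-values therefore reflect differences among libraries, which may be technical and may not stand for differences among animals.

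The question was which basal genes set the Elf5+ libraries apart from the Elf5- libraries, both of which held markers of other cell types too. Of the 7 genes only Procr passed the test, and it was lower in the Elf5+ libraries by a factor of 17.0 (edgeR's quasi-likelihood fit, threshold 0.05 on the adjusted p). Trp63 and Oxtr had fold changes of the same sign that did not pass, at 7.47-fold and 5.75-fold lower. Lgals7 and Sfn had values of the opposite sign and were at high levels in both groups. Among all genes tested 4.37% were called, 3.79% as lower and 0.585% as higher, and for the 7 genes the median log2 fold change was -1.23 against 0.05 for all genes. The median of the 7 was -1.99 without Elf5+ library 1 and -2.16 without Elf5+ library 2. With a single Elf5- library left out it ran from -1.33 to -1.10. In all, 1 gene of the set was called lower and 0 higher. The 2 groups did not overlap for 4 of the 7, lower in Elf5+ for Procr, Oxtr and Dst and higher for Lgals7, and among all genes 25.7% did not overlap. At an unadjusted p under 0.05 edgeR gave 3 lower and 1 higher, where 11.7% of all genes were lower and 5.2% higher by that rule. DESeq2 called 3 lower (Procr, Oxtr and Trp63) and 0 higher, where it called 8.02% of genes with an adjusted p as lower and 1.85% as higher.

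**Figure D1:**
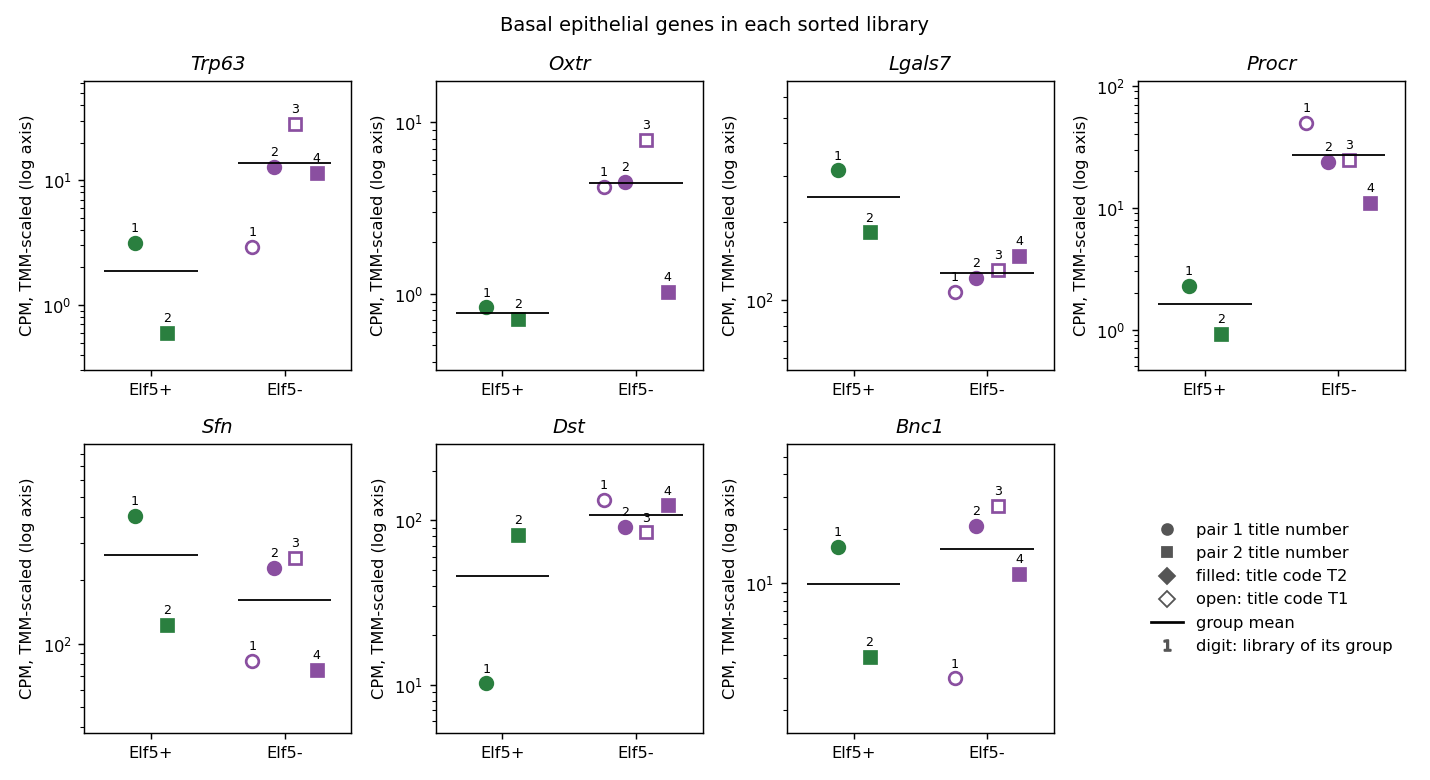
CPM of each gene (TMM-scaled, log axis) in the 2 Elf5+ and 4 Elf5- libraries, with digits for the library number within its group, circles and squares for the 2 title numbers, filled points for T2 and open points for T1, and lines at the group means. Procr lies between 0.929 and 2.29 CPM in Elf5+ and between 10.9 and 49.7 CPM in Elf5-, and Dst splits the Elf5+ libraries at 10.2 and 81.7 CPM.

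The regulators come first. Trp63 was at 3.13 and 0.600 CPM in Elf5+ libraries 1 and 2, against 2.92, 12.8, 28.4 and 11.4 CPM in Elf5- libraries 1 to 4. The groups overlap, because Elf5- library 1 is as low as Elf5+ library 1. The mean was 1.86 ± 1.79 CPM in Elf5+ (SD, n = 2) and 13.9 ± 10.6 CPM in Elf5- (SD, n = 4), which is -2.90 on the log2 scale (SE 1.01) with an edgeR adjusted p of 0.185. Trp63 was called with DESeq2 (adjusted p = 0.00615) and with no low-count filter (0.0387). Elf5- library 1 is low in Trp63 and Bnc1 but holds the most Procr and Dst of all 6 libraries.

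Bnc1 was at 15.9 and 3.91 CPM in Elf5+ libraries 1 and 2, against 2.99, 20.7, 26.8 and 11.3 CPM in Elf5- libraries 1 to 4. Elf5+ library 1 lies among the Elf5- values, and the lowest library of all is Elf5- library 1. The log2 fold change was -0.64 (SE 0.85, adjusted p = 0.785), and it was 0.03 without Elf5+ library 2 and -1.99 without Elf5+ library 1. Its only relative, Bnc2, a zinc finger protein with high levels in mesenchymal cells, was at 1.37 and 0.948 CPM in Elf5+ against 14.6 to 20.2 CPM in Elf5-. Bnc2 fell by 3.85 on the log2 scale (SE 0.39, edgeR adjusted p = 0.0100) and was called in each of the 6 fits that left out 1 library. Without both Elf5- libraries 1 and 2 it was not (-3.90, adjusted p = 0.0517).

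Of the 2 other members of the p53 family 0 passed in edgeR (1 lower, Trp73, at an unadjusted p under 0.05 and in DESeq2). Trp53 was at 182.6 and 139.8 CPM in Elf5+ against 109.7 to 150.7 CPM in Elf5-, 0.31 on the log2 scale (adjusted p = 0.602). Scaled to epithelial genes Trp53 was called lower (edgeR adjusted p = 0.0345), but at -1.17 it lay above the median of -1.37 over all genes. With that scaling 49.1% of all genes were called lower. Trp73 stayed at or below 1.22 CPM in every library. Of 14 genes known as targets of p63 in epithelia, 3 fell and 1 rose, with a median log2 fold change of -0.58 against 0.05 over all genes. The list's median was -0.000616 without Elf5+ library 2, -0.20 without Elf5- library 2 and -1.06 without Elf5+ library 1. Those that fell were Krt5, the basal keratin, Cdh3, the P-cadherin of basal cells, and Col17a1, a hemidesmosomal collagen, with log2 fold changes of -4.18, -4.51 and -4.18. Col17a1 was at 1.73 and 1.01 CPM in Elf5+ against 14.1 to 46.7 CPM in Elf5-. Ripk4, a kinase of epidermal differentiation, rose by 1.25 on the log2 scale (adjusted p = 0.0452), but was at -0.12 when scaled to epithelial genes and was not called in 5 of the 6 fits that left out 1 library. Perp, Itga3 and Itgb4, also on this list, were at 0.44, -0.06 and 0.41 on the log2 scale and did not pass.

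Dst, of which all forms are summed here, split the Elf5+ libraries. It was at 10.2 CPM in Elf5+ library 1 and 81.7 CPM in Elf5+ library 2, against 133, 91.1, 84.3 and 123 CPM in Elf5- libraries 1 to 4. The groups do not overlap, but the lowest Elf5- library is only 1.03 times Elf5+ library 2, while Elf5+ library 1 is 8.04-fold lower than library 2. The log2 fold change was -1.23 (SE 0.70, adjusted p = 0.451). Without Elf5+ library 2 it was -3.40 and was called (adjusted p = 0.0401), and without Elf5+ library 1 it was -0.40 (0.648). Without Elf5- libraries 1 and 2, where skeletal muscle markers were highest, the log2 fold change of Dst was -1.13. The part of cells other than epithelium in the Dst values was not tested.

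The chains of the hemidesmosomal integrin were not low in Elf5+ library 1. Itgb4 was at 186 and 98.5 CPM in Elf5+ libraries 1 and 2, against 74.0 to 144 CPM in Elf5-. Itga6 was at 114 and 126 CPM in Elf5+, against 75.6 to 122 CPM in Elf5-. Of 9 genes of basal adhesion 2 fell, Cdh3 and Col17a1, and 0 rose (median log2 fold change -0.45). Without Elf5+ library 2 only 1 of these was called, as Col17a1 did not pass (adjusted p = 0.0667), and the median was -0.10. The median was -0.18 without Elf5- library 2 and -1.12 without Elf5+ library 1. The laminin chains Lama3 and Lamb3 had log2 fold changes of -1.88 and -0.52 and did not pass. Of 6 other plakins Eppk1 (epiplakin) rose, at 78.8 and 102 CPM in Elf5+ against 21.7 to 44.8 CPM in Elf5- (log2 fold change 1.51, SE 0.30, adjusted p = 0.0334). Eppk1 was not called when scaled to epithelial genes (0.18), or without Elf5+ library 2 or Elf5- library 1, 2 or 4 (1.30, 1.36, 1.46 and 1.52). Macf1, the plakin most like dystonin, was at 76.7 and 113 CPM in Elf5+ against 109 to 165 CPM in Elf5-, and did not pass (log2 fold change -0.53).

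The receptors follow. Oxtr was at 0.832 and 0.716 CPM in Elf5+ libraries 1 and 2, against 4.21, 4.51, 7.91 and 1.03 CPM in Elf5- libraries 1 to 4. The groups do not overlap, but the value of Elf5- library 4 rests on 10 counts, and its exact Poisson 95% interval of 0.493 to 1.89 CPM takes in both Elf5+ values. The log2 fold change was -2.52 (SE 0.78, adjusted p = 0.132). It was called with DESeq2 (adjusted p = 0.00353) and in edgeR without Elf5- library 4 (log2 fold change -2.83, adjusted p = 0.0378).

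Genes through which oxytocin contracts myoepithelium were measured beside the receptor. Of 15 genes listed 14 were tested and 1 fell, Mylk, the myosin light chain kinase, at 10.8 and 3.89 CPM in Elf5+ against 33.2 to 107 CPM in Elf5- (log2 fold change -3.35). Mylk was not called without Elf5+ library 2, Elf5- library 1 or Elf5- library 3 (adjusted p = 0.0834, 0.0735 and 0.0793). The G protein subunits Gnaq and Gna11 (0.28 and -0.12), the calcium channel Orai1 (0.72) and the phospholipase Plcb4 (-0.87) did not pass. Of 10 contractile genes 5 fell, namely Myh11, Acta2, Tagln, Mylk and Myl9, with log2 fold changes of -4.61 to -3.07. Acta2, smooth muscle actin, was at 32.9 and 5.88 CPM in Elf5+ against 120 to 453 CPM in Elf5-. None of these 10 was called without Elf5+ library 2, without Elf5- library 1 or without Elf5- library 3. Those fits called 197, 249 and 338 of all genes lower, against 783 in all libraries. The median log2 fold change of the 10 was -2.616, -2.995 and -2.994 there, against -3.051 in all libraries. Without Elf5- library 2, 2 of the 10 were called. Contractile genes are made by pericytes too, and 5 of 8 pericyte and smooth muscle markers fell, with a summed level of 87.4 and 112 CPM in Elf5+ against 515 to 1077 CPM in Elf5-. Of these markers 3 were called without Elf5+ library 2, Elf5- library 1 or Elf5- library 3. The part of pericytes in the contractile values and in Oxtr was not tested.

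Procr was at 2.29 and 0.929 CPM in Elf5+ libraries 1 and 2, against 49.7, 23.6, 24.8 and 10.9 CPM in Elf5- libraries 1 to 4. Every Elf5+ value lies below every Elf5- value, and the lowest Elf5- library is 4.75-fold above the highest Elf5+ library. The mean was 1.61 ± 0.966 CPM in Elf5+ (SD, n = 2) and 27.3 ± 16.2 CPM in Elf5- (SD, n = 4). The log2 fold change was -4.09 (SE 0.73, adjusted p = 0.0248). Procr was no longer called without Elf5+ library 2 (adjusted p = 0.0863), without Elf5- library 1 (0.0535) or without Elf5- library 3 (0.0690), with log2 fold changes of -3.57, -3.62 and -4.13. It was not called either without both Elf5- libraries 1 and 2 (-3.49, adjusted p = 0.117), or in the T2 libraries with no block (-3.42). Elf5- libraries 1 and 2 hold the muscle transcripts and are also all the Elf5- libraries with the title number of pair 1. Muscle transcripts and title number cannot be told apart in the fit without them, which called 75 genes lower, against 783 in all libraries. Over 16 other settings the adjusted p of Procr ran from 3.1e-09 to 0.195.

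The receptor's own pathway was measured too. Of 11 genes of the protein C pathway 9 were tested and 3 fell, Thbd, Tfpi and F2r, with 0 higher and a median log2 fold change of -1.52 (-2.37 to -1.12 with 1 library left out). Thbd encodes thrombomodulin, with which the receptor activates protein C, and was at 4.45 and 1.35 CPM in Elf5+ against 45.1 to 93.8 CPM in Elf5- (log2 fold change -4.56, SE 0.66, adjusted p = 0.0132). Tfpi, the tissue factor pathway inhibitor, was at 1.37 and 0.697 CPM in Elf5+ against 12.95 to 32.8 CPM in Elf5-. F2r, the thrombin receptor PAR1 that activated protein C also cleaves, had a log2 fold change of -2.90. F3, the tissue factor that starts coagulation, was at 95.5 and 584 CPM in Elf5+ against 47.6 to 129 CPM in Elf5- and did not pass (1.90, adjusted p = 0.158). F3 was called higher with DESeq2 (adjusted p = 0.0384), with no low-count filter (0.0306) and without Elf5+ library 1 (2.69, adjusted p = 0.0259), and was at 0.07 without Elf5+ library 2. In edgeR 5 of the 9 were lower and 1 higher at an unadjusted p under 0.05, and fewer than 3 were called without Elf5+ library 2 (1 lower) or without Elf5- library 1 (2 lower). Without both Elf5- libraries 1 and 2 none of the 8 still tested passed. In the T2 libraries with the title number as a block, 2 of 8 were called higher and 3 lower.

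Markers of some other cell types fell. Of 10 fibroblast markers 8 fell, with a summed level of 1351 and 756 CPM in Elf5+ against 17488 to 49728 CPM in Elf5-. The count was 2 without Elf5+ library 2 and 4 without Elf5- library 1. Of 8 endothelial markers 3 fell (Eng, Tek and Kdr), and their sum was 37.4 and 12.5 CPM in Elf5+ against 58.5 to 133 CPM in Elf5-. None of these 8 was called without Elf5+ library 2, Elf5- library 1 or Elf5- library 3, and 1 was called without Elf5+ library 1 or Elf5- library 2. Of 3 mesothelial markers tested 1 fell (Wt1, though not without Elf5+ library 2, with an adjusted p of 0.0520), with a sum over 5 genes of 5.197 and 1.14 CPM in Elf5+ against 8.45 to 15.0 CPM in Elf5-. Of 8 leukocyte and 8 skeletal muscle markers 0 passed in edgeR (1 and 3 lower at an unadjusted p under 0.05, 1 and 1 in DESeq2). Of 5 Schwann cell markers tested 1 rose, Sox10, which is also made by mammary epithelium, and the 1 adipocyte marker tested did not pass. No fibroblast, pericyte or endothelial marker was at 0 in both Elf5+ libraries. The part of these cells in the Procr and protein C pathway values was not tested. In bulk libraries fewer cells of a type and less RNA per cell cannot be told apart.

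**Figure D2:**
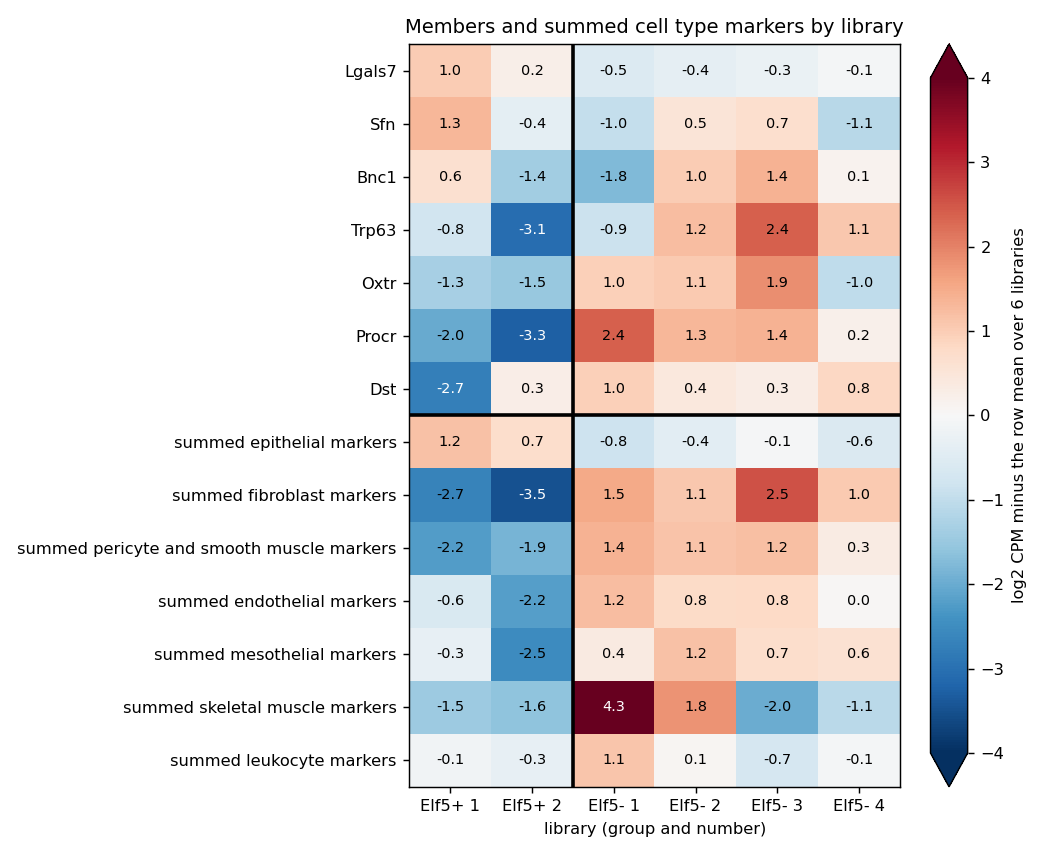
Log2 CPM minus the row mean over the 6 libraries for the 7 genes and for the summed markers of 7 cell types, with Elf5+ libraries left of the line. Procr is at -2.02 and -3.28 in Elf5+, where the summed fibroblast and pericyte markers are also lowest, and Lgals7 is at 1.01 and 0.22 there, where the epithelial sum is highest.

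Lgals7 and Sfn form the other end of the set. Lgals7 was at 314 and 182 CPM in Elf5+ libraries 1 and 2, against 108, 121, 131 and 148 CPM in Elf5- libraries 1 to 4. Every Elf5+ value lies above every Elf5- value. The log2 fold change was 0.97 (SE 0.27), and it did not pass in edgeR (adjusted p = 0.0991) or in DESeq2 (0.0510). Of 7 other galectins tested 0 passed in edgeR or DESeq2 (with an unadjusted p under 0.05, edgeR gave 1 higher and 2 lower), with a median log2 fold change of -0.49. That median was -0.88 without Elf5+ library 1, -0.15 without Elf5+ library 2, -0.06 without Elf5- library 1 and 0.23 without both Elf5- libraries 1 and 2. Lgals3, also a galectin of epithelia, was at 815 and 525 CPM in Elf5+ against 377 to 472 CPM in Elf5- (0.66, adjusted p = 0.262). Lgals1, abundant in mesenchyme, was at 352 and 120 CPM in Elf5+ against 352 to 947 CPM in Elf5- (-1.46, adjusted p = 0.253). Lgals8, of smallest p in edgeR, was at 16.6 and 19.3 CPM in Elf5+ against 28.0 to 46.0 CPM in Elf5- (-0.98, adjusted p = 0.119). Lgals9 had a log2 fold change of -0.63 (edgeR adjusted p = 0.365).

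Sfn was at 406 and 123 CPM in Elf5+ libraries 1 and 2, against 83.1, 230, 256 and 75.4 CPM in Elf5- libraries 1 to 4. The groups overlap, since Elf5+ library 2 lies below Elf5- libraries 2 and 3. The log2 fold change was 0.71 (SE 0.63, adjusted p = 0.662), and -0.40 without Elf5+ library 1. The 6 other 14-3-3 genes, which are expressed in nearly all cells, did not pass in edgeR or DESeq2 (0 at an unadjusted p under 0.05), with log2 fold changes of -0.28 to 0.42. Scaled to epithelial genes all 6 were called lower, with a median log2 fold change of -1.13 against -1.37 over all genes. With that scaling 49.1% of all genes were called lower. Of 14 genes of stratified epithelial differentiation that could be tested 0 passed in edgeR (2 lower at an unadjusted p under 0.05), and DESeq2 called 2 of 16 lower. The 2 lower in edgeR were Dsc3 and Krtdap, with log2 fold changes of -4.29 and -3.79. Dsc3 was at 0.045 and 0.406 CPM in Elf5+ against 1.35 to 9.36 CPM in Elf5-. Serpinb5 (maspin), also on this list, was at 132 and 84.4 CPM in Elf5+ against 31.3 to 106 CPM in Elf5- (log2 fold change 0.95). Krtdap and the cornified layer genes Krt1 and Lor stayed below 1 CPM in every library.

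Of 18 epithelial markers 11 rose, with a summed level of 8661 and 6359 CPM in Elf5+ against 2167 to 3718 CPM in Elf5-. The count was 3 without Elf5+ library 1, 4 without Elf5+ library 2, 6 without Elf5- library 1 or 2, 7 without Elf5- library 3 and 0 without both Elf5- libraries 1 and 2, with a median log2 fold change of 1.49 in all libraries and 1.32 to 1.64 in these fits. When libraries were scaled to these markers and not with TMM, all genes had a median log2 fold change of -1.37. With it 16 genes were called higher and 10163 lower, against 121 and 783 with TMM. Lgals7 and Sfn were then at -0.50 and -0.70, above that median, and neither was called. Trp63, Oxtr, Dst and Bnc1 were called lower with this scaling, at -4.28, -3.86, -2.54 and -2.03, as was Procr at -5.67. With this scaling 5 of the 7 genes were called lower and 0 higher, and 49.1% of all genes were called lower.

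Keratins and other basal genes stand beside the 7. Of 7 basal keratins 1 fell, Krt5, at 3.96 and 1.37 CPM in Elf5+ against 32.2 to 73.0 CPM in Elf5-. Krt14, its partner, was at 562 and 533 CPM in Elf5+ against 288 to 490 CPM in Elf5-, without overlap (log2 fold change 0.52, adjusted p = 0.407, and -0.86 when scaled to epithelial genes). Krt6a, for which reads may be shared with the near-identical Krt6b, was at 10.8 and 3.19 CPM in Elf5+ against 5.28 to 65.2 CPM in Elf5-. Of 9 further basal regulators and surface proteins 4 fell, namely Snai2, Pdpn, Ngfr and Egfr. Only 1 of these 9 was called without Elf5+ library 2, without Elf5- library 1 or without Elf5- library 2, and 2 without Elf5- library 3. Snai2 encodes the repressor Slug, and was at 0.472 and 0.561 CPM in Elf5+ against 5.86 to 13.6 CPM in Elf5-. Jag2, Id4 and Mme of this list had log2 fold changes of -0.68, -0.41 and -0.07. Over the 35 genes of the 4 basal lists 12 fell and 0 rose in edgeR, with a median of -1.77. The count was 3 without Elf5+ library 2, 4 without Elf5- library 1, 6 without Elf5- library 2 and 5 without Elf5- library 3, and the median was -2.97 without Elf5+ library 1. Without both Elf5- libraries 1 and 2 no gene of these 4 lists was called.

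**Figure D3:**
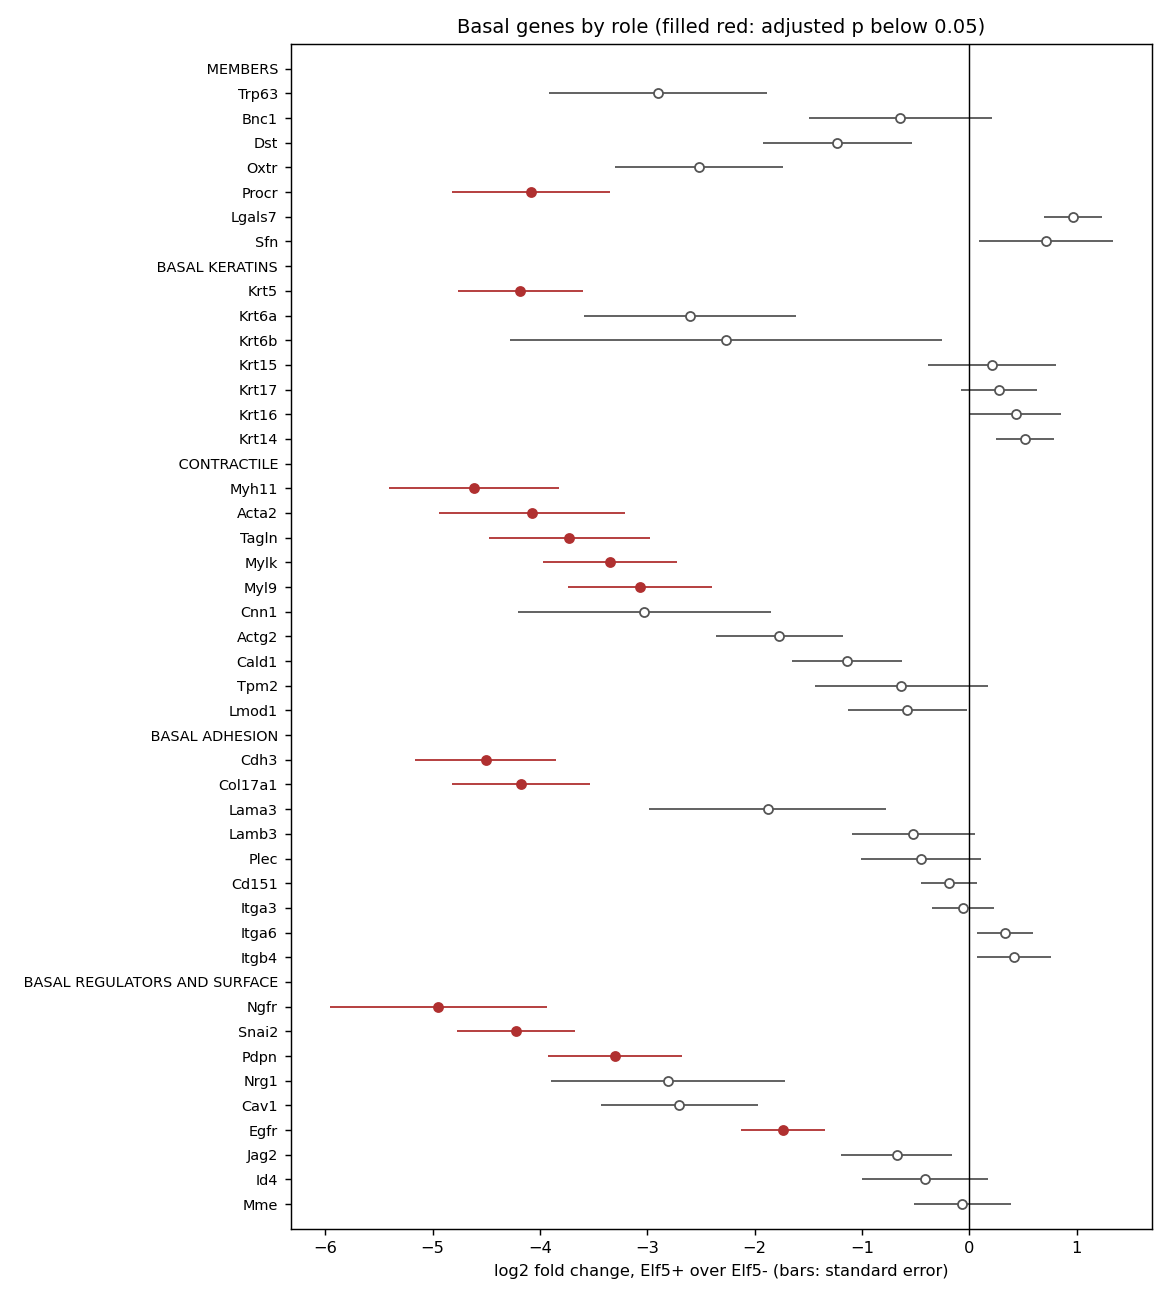
Log2 fold change, Elf5+ over Elf5-, with its standard error, for the 7 genes and the 4 lists of basal genes, filled red where the adjusted p was below 0.05. Of the 7 genes Procr alone is filled at -4.09, and the filled genes of the lists run from Ngfr at -4.95 to Egfr at -1.74.

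Levels of the genes can be compared with each other only per length, for which CPM were divided by kilobases of annotated exon. In Elf5+ the order was Lgals7, Sfn, Bnc1, Dst, Procr, Trp63 and Oxtr, at means of 268, 164, 2.13, 1.12, 0.794, 0.222 and 0.162 CPM per kilobase. In Elf5- the order was Lgals7, Sfn, Procr, Bnc1, Dst, Trp63 and Oxtr, at 137, 99.9, 13.4, 3.33, 2.62, 1.65 and 0.922 CPM per kilobase. In Elf5+ the ranges of neighbours do not overlap between Sfn (76.1 to 252) and Bnc1 (0.841 to 3.43), nor between Procr (0.457 to 1.13) and Trp63 (0.0715 to 0.373), and do overlap otherwise. In Elf5- the range of each gene overlaps that of its neighbour in this order, except between Sfn (46.7 to 159) and Procr (5.37 to 24.5). Divided by the longest transcript instead, Dst stands above Bnc1 in Elf5-. Procr thus holds the third place in Elf5- and the fifth in Elf5+.

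Spread within a group differed between the genes. Among the Elf5- libraries the highest value was 9.71 times the lowest for Trp63, 8.96 for Bnc1, 7.69 for Oxtr, 4.56 for Procr and 3.40 for Sfn, but only 1.57 for Dst and 1.37 for Lgals7. Between the Elf5+ libraries, library 1 was higher for all genes but Dst, by 5.21-fold for Trp63, 4.07-fold for Bnc1, 3.31-fold for Sfn, 2.47-fold for Procr, 1.73-fold for Lgals7 and 1.16-fold for Oxtr.

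All 7 genes had 1 direction in both T2 pairs. Pair 1 sets Elf5+ library 1 over Elf5- library 2, and pair 2 sets Elf5+ library 2 over Elf5- library 4. Procr differed by log2 ratios of -3.36 and -3.55 in pairs 1 and 2, Trp63 by -2.03 and -4.25, and Bnc1 by -0.38 and -1.53. Dst and Oxtr differed mainly in pair 1, with -3.16 and -2.44 there and -0.59 and -0.52 in pair 2. Sfn was higher in Elf5+ in both, by 0.82 and 0.70, and Lgals7 by 1.37 and 0.30. Over all genes tested 69.4% had the same direction in both pairs.

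**Figure D4:**
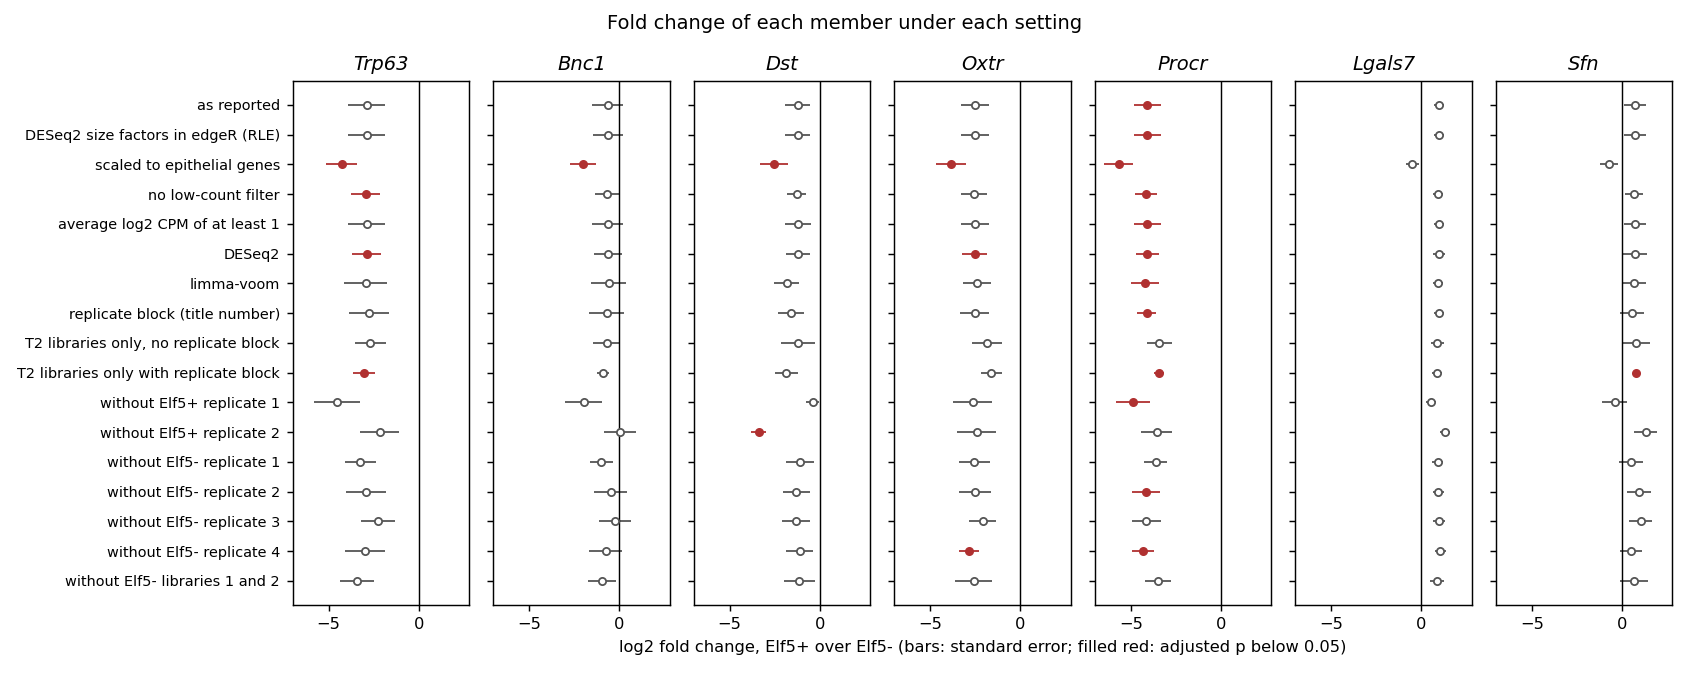
Log2 fold change with its standard error for each gene as reported and under 16 other settings, filled red where the adjusted p was below 0.05. Procr stays between -5.67 and -3.42 throughout, Lgals7 and Sfn cross 0 when scaled to epithelial genes (at -0.50 and -0.70), and Dst moves to -3.40 without Elf5+ replicate 2.

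For each of the 7 genes, the 3 genes with the most alike pattern over the 6 libraries were found by the root mean square difference of centred log2 CPM. Candidates were genes whose average log2 CPM reached 1, without predicted genes (Gm and Rik names) and identifiers with no symbol. Because the nearest genes were picked by their values in the same libraries, a fold change like that of their gene follows from the choice. The median difference over all candidates was 0.61 for Lgals7, 0.97 for Sfn and 1.24 to 2.05 for the other 5. Procr was nearest to Fam124a, the neuropeptide Y receptor gene Npy1r and Lims2, a focal adhesion protein, at differences of 0.25, 0.26 and 0.28. Of these Npy1r and Lims2 were called lower (log2 fold changes -4.05 and -4.02), a direction set by the choice. Dst was nearest to Prrt2, Twist1 and Dpy19l3, at 0.30, 0.33 and 0.34. Twist1, a transcription factor of mesenchyme, was at 6.28 and 35.8 CPM in Elf5+ libraries 1 and 2 against 34.5 to 55.9 CPM in Elf5-, the pattern by which it was picked. Bnc1 was nearest to Aqp3, a water and glycerol channel of basal keratinocytes, at 0.25, which was at 37.5 and 9.33 CPM in Elf5+ against 7.27 to 46.1 CPM in Elf5-.

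Trp63 was nearest to Pde2a, Qrfp and Tnfsf11, at 0.48, 0.52 and 0.54, and Oxtr to Rnf165, the growth factor gene Mdk and Serpinb9, at 0.45, 0.45 and 0.47. Serpinb9, an inhibitor of granzyme B, was called lower (log2 fold change -2.30), a direction set by the choice. Lgals7 was nearest to Mfsd13a, Tle6 and Rassf7, at 0.10, 0.11 and 0.13, and Sfn to P3h2, Slc4a11 and Urah, at 0.28, 0.30 and 0.31. Distances among the 7 genes were larger than any of these, the smallest being 0.74, between Lgals7 and Sfn, and 0.86, between Sfn and Bnc1.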

How the data were processed

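RNA of 2 Elf5+ and 4 Elf5- sorted cell populations was sequenced. The authors deposited expected counts, estimated per gene and written as whole numbers, for 52325 genes. Salmon and the build GRCm38.p5 are named in the submitters' processing notes, while its version, the annotation and how transcripts were summed are not given there. Symbols were matched for 52220 identifiers, and rounding changed 0 values. Genes with few counts were filtered with filterByExpr, libraries were scaled with TMM, and Elf5+ was compared with Elf5- by edgeR's quasi-likelihood test (edgeR 4.0.16, limma 3.58.1, DESeq2 1.42.0, R 4.3.3) without a block, with Benjamini-Hochberg adjustment over 20684 genes and a threshold of 0.05. Standard errors are the log2 fold change over the root of the F statistic. The common biological coefficient of variation (edgeR) was 0.446. Depth was 9106660 to 53694884 counts per library, and intervals cover counting error only. Coordinates came from GENCODE M21 (GRCm38), and start regions from RefSeq. Figures were drawn with Python 3.11.15 and matplotlib 3.10.9.

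The 7 genes, the gene and marker lists and the settings were chosen with earlier results of these data known. Named besides the 7 were up to 4 genes of smallest p in each list, 2 of highest level in each marker list, the 3 nearest genes of each of the 7, and Elf5. Other list genes named in the text were chosen after their values were seen. Lists are described by counts and medians, with no set test, and some list genes are not reported here. Alternatives were other size factors, scaling to 18 epithelial genes, other low-count filters, limma-voom, DESeq2, a block for the title number, the T2 libraries alone and fits without single libraries.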

Additional observations from a re-analysis of the deposited data

Results flagged for a closer look

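Among 76 values checked in the 4 Elf5- libraries (the 7 genes, the named genes of the lists and the marker sums), 5 had 1 library far from the other 3, and none of the 7 genes was among them. Chance gives about 1 in 20. Elf5- library 3 stood apart for Ripk4 (42.4 CPM, against 24.3 to 27.2 CPM in the others), F2r (159.8 CPM, against 62.7 to 70.2 CPM) and Col1a1 (11394 CPM, against 4470 to 4971 CPM). Elf5- library 1 stood apart for Tnnt3, a troponin of skeletal muscle (29.2 CPM, against 0.549 to 4.57 CPM), and for the summed skeletal muscle markers (228.7 CPM, against 2.91 to 39.7 CPM).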

How the results depend on the processing

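Over 16 other settings the direction of Procr, Trp63, Oxtr and Dst held. Scaled to epithelial genes, Lgals7 and Sfn turned to -0.50 and -0.70, Trp63, Oxtr, Dst and Bnc1 were called at -4.28, -3.86, -2.54 and -2.03, 5 of the 7 genes were lower, and 16 genes in all were higher and 10163 lower. With no low-count filter Trp63 was called (-2.95), 2 of the 7 were lower, and 273 and 1331 genes were called higher and lower. With DESeq2 Trp63 and Oxtr were called (-2.89 and -2.54), 3 of the 7 were lower, and 401 and 1735 genes were called. In T2 libraries without a block edgeR called 0 genes higher and 0 lower (469 and 1463 at an unadjusted p under 0.05), 0 of the 7, and Procr was at -3.42. Without Elf5- libraries 1 and 2 it called 0 higher and 75 lower (539 and 1657 unadjusted), 0 of the 7, and Procr was at -3.49. With 1 library left out, log2 fold changes ran from -4.88 to -3.57 for Procr, -4.53 to -2.16 for Trp63, -2.83 to -2.09 for Oxtr, -3.40 to -0.40 for Dst, -1.99 to 0.031 for Bnc1, 0.52 to 1.31 for Lgals7 and -0.40 to 1.32 for Sfn, with 0 to 2 of the 7 lower, 0 higher, 25 to 133 genes higher and 197 to 811 lower. The cause of these shifts was not tested.

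The title numbers are not defined, and 2 pairs are too few to show that they pair the libraries. Across 12606 genes, deviations from the group means of Elf5+ and Elf5- libraries correlated at 0.60 in pair 1 and 0.71 in pair 2. With the T1 library of the same number they correlated at 0.15 and -0.03. With 2 Elf5+ libraries, the deviations of library 2 are those of library 1 with the sign turned. Across the pairs the values are therefore -0.60 and -0.71 by construction, and the 2 pairs are not separate checks of pairing. With the title number as a replicate block 252 genes were higher and 1011 lower, and Procr was called as lower (log2 fold change -4.13, adjusted p = 0.0131), with no other of the 7. The block fit gave log2 fold changes of -2.74 for Trp63, -2.53 for Oxtr, -1.60 for Dst, -0.71 for Bnc1, 0.95 for Lgals7 and 0.57 for Sfn. In T2 libraries with the block 549 and 1368 genes were called, 1 of the 7 as higher (Sfn, 0.77) and 2 as lower (Procr and Trp63, with Trp63 at -3.04). With 9106660 counts, Elf5- library 4 limits Oxtr, for which 3 counts there are 0.309 CPM.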
